A study of Mus musculus with 6 samples.

Results

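The 42 genes described here are 35 type I interferon-stimulated genes and 7 genes of MHC class I antigen presentation, chosen by name from the 55367 gene names of the count table of cultured mouse keratinocytes. They were listed by function, although with earlier results of these data known, and all 42 names were found in the table. RNA was sequenced from primary keratinocytes, the main cells of the epidermis, isolated from the skin of day 2 pups of a mixed C57BL/6 and 129/Sv background. All cultures carried *Ppp1r13l* flox/flox;Cre+ERT, that is, loxP sites in both copies of *Ppp1r13l*, the gene for the p53 inhibitor iASPP, and a Cre recombinase that tamoxifen activates. This Cre was inserted at the *Rosa26* locus, which is active in most cell types, so deletion was not limited to keratinocytes. Cells of each of 3 batches were divided between medium with tamoxifen (iASPP KO, n = 3) and medium without it (iASPP WT, n = 3), changed 24 h after plating. The iASPP WT cultures received no drug, so the deletion, active Cre and tamoxifen cannot be told apart. How many animals a batch held was not given in the sources used here. The p-values set the difference between the conditions against its variation over these 3 batches. That variation was not taken from each gene alone but drawn toward the trend over all genes.

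Type I interferons are secreted when cells sense viral nucleic acid. They bind the receptor IFNAR, whose kinases JAK1 and TYK2 phosphorylate STAT proteins. STAT2 and IRF9 are parts of a complex that binds the interferon-stimulated response element (ISRE) and switches on many antiviral genes, while other STAT complexes bind the gamma-activated sequence (GAS). MHC class I molecules show fragments of a cell's own proteins to CD8 T cells: immunoproteasome subunits cut the fragments, the TAP transporter carries them into the endoplasmic reticulum, and a heavy chain paired with beta-2 microglobulin presents them. Epidermal keratinocytes respond to interferon with both programs, in viral infection and in inflammatory skin disease.

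The ISRE was visible in the sequence of many of these genes. A promoter window was read as the 250 bases upstream of the RefSeq gene start (GRCm38.p6), which was found for 32 of the 42 genes. The ISRE core, searched as GAAANNGAA on both strands with overlapping matches counted, lay in the window of 15 of these 32 genes (46.9%), against 2211 of 27025 genes (8.18%) with a window in the same table. It was present in 14 of 26 interferon-stimulated genes (53.8%) and in 1 of 6 class I presentation genes, *B2m*. A GAS form, TTCCNGGAA, lay in the windows of *Ifit2*, *Gbp7* and *Bst2*, that is 3 of 32 (9.38%) against 1.09% of all genes. Repeated ISRE cores or both motifs were also present in windows that are not printed, those of *Oas1a*, *Oas3*, *Gbp3* and *Gbp7*. The 6 windows below are examples that hold repeated ISRE cores (*Isg15*, *Ifit1* and *Ifit3*), both motifs (*Bst2*), or belong to the genes with the smallest p-values (*Ifitm3* and *B2m*). They are written 5′ to 3′ on the gene's strand with motif matches in capitals, and a match is a string of letters, not a shown binding site.
Isg15, chr4:156200819-156201068, minus strand: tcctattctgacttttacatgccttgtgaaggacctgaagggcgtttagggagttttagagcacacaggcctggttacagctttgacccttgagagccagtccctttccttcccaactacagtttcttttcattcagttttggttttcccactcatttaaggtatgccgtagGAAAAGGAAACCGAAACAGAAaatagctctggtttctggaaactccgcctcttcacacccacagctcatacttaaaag
Ifit1, chr19:34640639-34640888, plus strand: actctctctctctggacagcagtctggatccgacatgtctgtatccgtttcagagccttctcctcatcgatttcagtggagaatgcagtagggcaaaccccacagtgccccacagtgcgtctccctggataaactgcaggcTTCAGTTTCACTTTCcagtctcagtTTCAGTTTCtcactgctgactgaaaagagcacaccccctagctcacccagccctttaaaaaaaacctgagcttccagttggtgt
Ifit3, chr19:34583279-34583528, plus strand: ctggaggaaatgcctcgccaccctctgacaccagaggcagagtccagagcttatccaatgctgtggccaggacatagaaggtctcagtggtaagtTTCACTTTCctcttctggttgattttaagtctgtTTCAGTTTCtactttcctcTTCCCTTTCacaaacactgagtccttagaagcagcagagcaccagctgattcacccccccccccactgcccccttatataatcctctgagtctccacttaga
Bst2, chr8:71537473-71537722, minus strand: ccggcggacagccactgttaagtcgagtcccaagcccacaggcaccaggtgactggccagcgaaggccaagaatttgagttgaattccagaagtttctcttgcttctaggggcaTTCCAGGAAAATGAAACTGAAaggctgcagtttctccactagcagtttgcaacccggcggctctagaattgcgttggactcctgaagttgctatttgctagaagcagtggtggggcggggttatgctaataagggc
B2m, chr2:122147437-122147686, plus strand: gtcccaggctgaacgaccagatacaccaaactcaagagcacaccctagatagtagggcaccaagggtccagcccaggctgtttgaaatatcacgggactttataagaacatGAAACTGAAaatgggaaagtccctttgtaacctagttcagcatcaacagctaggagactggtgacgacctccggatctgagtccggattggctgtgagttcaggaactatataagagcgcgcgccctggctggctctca
Ifitm3, chr7:141010745-141010994, minus strand: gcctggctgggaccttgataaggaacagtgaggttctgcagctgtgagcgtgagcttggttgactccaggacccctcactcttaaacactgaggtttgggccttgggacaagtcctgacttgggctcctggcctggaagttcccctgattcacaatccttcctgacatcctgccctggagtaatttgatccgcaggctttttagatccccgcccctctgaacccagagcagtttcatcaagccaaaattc
In *Isg15* the 3 ISRE matches overlapped in 1 run and began 78, 72 and 66 bases upstream of the start, whereas in *Ifit3* they began 155, 121 and 102 bases upstream. In *Bst2* the GAS form shared its last bases with the first of 2 overlapping ISRE matches. The *Ifitm3* window held neither motif.

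The libraries held 20202517 to 25157117 counted reads, so that 3 reads were worth 0.123 to 0.141 CPM (read counts scaled to the size of the library, with edgeR's TMM factors). *Ppp1r13l* had 320, 395 and 139 counts in iASPP KO and 697, 1100 and 472 in iASPP WT of batches 1, 2 and 3, and its log2 fold change was −1.45 (SE 0.18; adjusted p = 0.00296, quasi-likelihood test of edgeR, adjusted by Benjamini-Hochberg over all genes). Basal keratinocyte markers summed to 22869 to 27418 CPM in every culture. Most of this sum was *Krt14* and *Krt5*, both highest in batch 3. *Itga6* was lowest there, at 364 CPM in iASPP KO and 357 CPM in iASPP WT, against 479 to 648 CPM elsewhere. *Col17a1*, *Itgb4* and *Trp63* also had a lower mean in batch 3 than in batches 1 and 2, and *Krt15* a higher one. Both cultures of batch 3 stood apart from the rest. Their 7 fibroblast markers summed to 469 CPM in iASPP KO and 685 CPM in iASPP WT, against 38.5 to 53.4 CPM in batches 1 and 2, and their suprabasal keratinocyte markers summed to 184 and 188 CPM, against 484 to 1445 CPM. Most of the suprabasal sum was *Krt1*. *Ivl*, at 32.3 and 29.6 CPM in batch 3, was within its range elsewhere (26.1 to 62.1 CPM). In such bulk samples, fewer cells of a type and less RNA per cell cannot be told apart.

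The question was whether losing iASPP changed these genes. With batch as a block, the difference between the conditions was set against its variation from batch to batch, estimated partly from all genes. The design left 2 residual degrees of freedom per gene, and the prior shared over genes had a median of 8.17. Of the 42 genes 33 had enough reads to be tested, and 1 passed the threshold, an adjusted p under 0.05. This was *Ifitm3*, which encodes a membrane protein that blocks virus entry, and it was higher in iASPP KO. Thus 3.03% of the tested genes were called, against 4.12% of all 14916 genes tested. For higher calls the share among all genes was 2.17%, and for lower calls, of which there were 0 here, it was 1.95%. At an unadjusted p under 0.05, 2 genes were higher (*Ifitm3* and *B2m*), where 8.66% of all genes were, and 1 was lower (*Oas1a*), where 8.09% of all genes were. The median log2 fold change over the 33 genes was 0.06, against 0.01 over all genes, with 18 values above 0 and 15 below. The fitted log2 fold changes ran from −1.89 (*Usp18*) to 1.29 (*Ifi44*), and both ends belonged to genes with few reads. Without batch 3, 27 of the genes were tested and 2 were higher (*Ifitm3* and *Ifi27*). Of all 15261 genes tested in that fit, 793 were higher and 662 lower. Without batch 1 only *Usp18* of 38 was called (lower), where 169 of 15437 genes were higher and 151 lower. Without batch 2 none of 39 was called, where 174 of 15236 genes were higher and 117 lower. All 3 batches gave a higher value in iASPP KO for 8 genes (24.2%, against 19.5% of all genes) and a lower value for 5 (15.2%, also against 19.5%). The values of iASPP KO and iASPP WT cultures overlapped for all 42 genes, while 10.7% of all tested genes did not overlap. This count ignores the pairing, and a gene with both batch 3 cultures above the other 4 must overlap whatever the deletion does. Such were 28 of the 42 genes, and 21 of the 33 tested ones, against 19.1% of all tested genes. No conclusion is therefore drawn from the overlap.

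**Figure D1:**
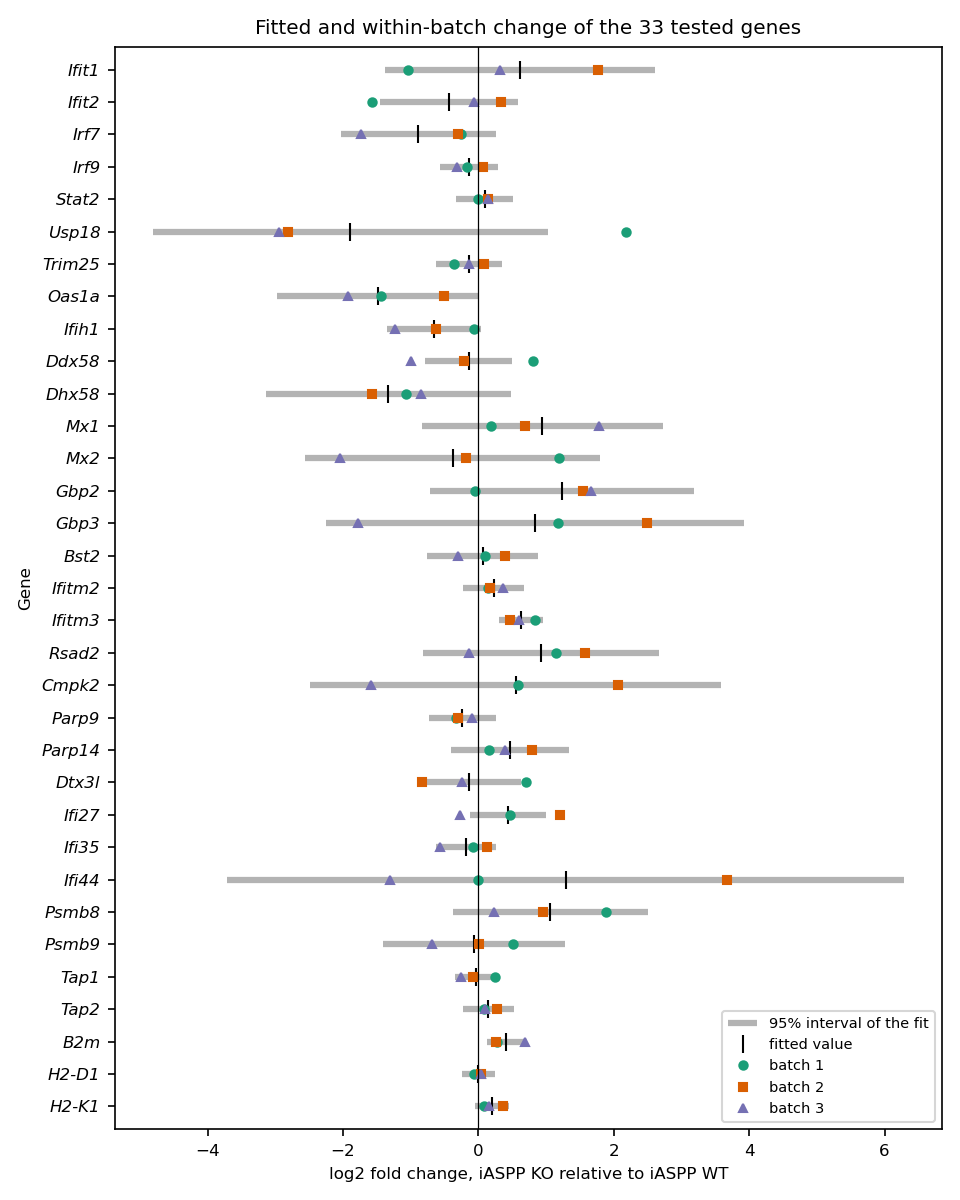
The plot shows log2 fold changes, positive where iASPP KO was higher (horizontal axis), for the 33 tested genes, ordered by role, with the fitted value as a tick, its 95% interval as a grey bar, and each batch's own difference of log2 CPM as a coloured symbol. The interval of *Ifitm3* (0.31 to 0.96) lies above 0 with all 3 batches close together, whereas *Usp18*, *Gbp3* and *Ifi44* have intervals several log2 units wide.

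*Ifitm3* (chr7:141009586-141010770, minus strand) was measured at 27.0, 36.4 and 66.6 CPM in iASPP KO (batches 1, 2 and 3 in this order throughout) and at 15.0, 26.3 and 44.1 CPM in iASPP WT. Each iASPP KO culture was above its own iASPP WT partner, and both conditions were highest in batch 3. The fitted log2 fold change was 0.63 (SE 0.15), a 1.55-fold higher level with a 95% interval of 1.24 to 1.94 (adjusted p = 0.041, edgeR's quasi-likelihood test). The batches gave log2 differences of 0.84, 0.46 and 0.59. The call was lost without batch 1 (log2 fold change 0.53, adjusted p = 0.214) and without batch 2 (0.72, adjusted p = 0.114) and held without batch 3 (0.65, adjusted p = 0.0113). Over all alternatives the adjusted p ran from 0.00533 to 0.977. Of the 42-base windows of its transcript, as long as a read, 14.0% also occurred in other genes, among them *Ifitm1* and *Ifitm2*, so reads from those stretches cannot be assigned to it with certainty.

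The other membrane restriction factors did not pass the test. *Ifitm2*, a related virus-entry inhibitor of endosomes, was at 11.9, 12.9 and 15.7 CPM in iASPP KO and 10.8, 11.5 and 12.2 CPM in iASPP WT. Its log2 fold change was 0.22 (95% interval −0.22 to 0.67), but 51.0% of its windows were shared with other genes and 40.9% of its exon bases overlapped *Gm45717* on the same strand, so its level is uncertain. *Bst2*, which encodes tetherin and holds budding virus at the cell surface, was at 2.67, 4.00 and 5.31 CPM in iASPP KO and 2.48, 3.04 and 6.55 CPM in iASPP WT (log2 fold change 0.06, 95% interval −0.76 to 0.88). *Ifitm1* had too few reads to be tested, with 3, 0 and 38 counts in iASPP KO and 0, 1 and 28 in iASPP WT. Both of its batch 3 cultures were above the other 4, as they were for *Ifitm3* and *Bst2*.

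The class I molecule itself was abundant in every culture, and its immunoproteasome subunits were not. Per kilobase of exon, *B2m* (beta-2 microglobulin) averaged 118 CPM over the 6 cultures, *H2-D1* 90.3, *Ifitm3* 53.0 and *H2-K1* 48.9, while *Tap1* averaged 9.23 and *Psmb8* and *Psmb9* 0.53 and 0.51. On this length-corrected scale the presenting molecule was far more abundant than the immunoproteasome subunits. None of the 7 genes passed the test, 1 of them (*B2m*) had an unadjusted p under 0.05, and their median log2 fold change was 0.15. *B2m* (chr2:122147686-122153083) was at 96.1, 96.8 and 159 CPM in iASPP KO and 79.4, 80.8 and 98.8 CPM in iASPP WT. The iASPP KO value was above the iASPP WT value in every batch, with log2 differences of 0.28, 0.26 and 0.68, and the gene missed the threshold (fitted log2 fold change 0.41, SE 0.13, 95% interval 0.13 to 0.69; adjusted p = 0.119, edgeR).

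Neither heavy chain was called. *H2-D1* was at 216, 205 and 278 CPM in iASPP KO and 226, 201 and 271 CPM in iASPP WT, and its log2 fold change of 0.00 had a 95% interval of −0.24 to 0.24. *H2-K1* was at 168, 155 and 137 CPM in iASPP KO and 158, 121 and 123 CPM in iASPP WT (log2 fold change 0.20, 95% interval −0.05 to 0.45). Their intervals were the narrowest of the 33 genes, 0.85-fold to 1.18-fold for *H2-D1* and 0.96-fold to 1.37-fold for *H2-K1*. Parts of both transcripts, 19.3% of the windows of *H2-D1* and 12.9% of those of *H2-K1*, also occurred in other genes, class I relatives included.

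The peptide supply showed no call either. *Tap1*, which encodes one chain of the peptide transporter, was at 46.1, 40.1 and 61.8 CPM in iASPP KO and 39.1, 42.5 and 73.7 CPM in iASPP WT (log2 fold change −0.03, 95% interval −0.35 to 0.28). Its partner *Tap2* was between 17.5 and 22.6 CPM in all cultures, with a log2 fold change of 0.15 (95% interval −0.22 to 0.52). The immunoproteasome subunit *Psmb8* was at 1.96, 1.35 and 3.40 CPM in iASPP KO and 0.47, 0.66 and 2.90 CPM in iASPP WT. It was higher in iASPP KO in all 3 batches, yet its interval was wide (log2 fold change 1.06, 95% interval −0.38 to 2.50; adjusted p = 0.481, edgeR). *Psmb9*, another immunoproteasome subunit, was at 1.65, 1.03 and 2.38 CPM in iASPP KO and 1.12, 1.03 and 3.87 CPM in iASPP WT, with no shared direction across batches.

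**Figure D2:**
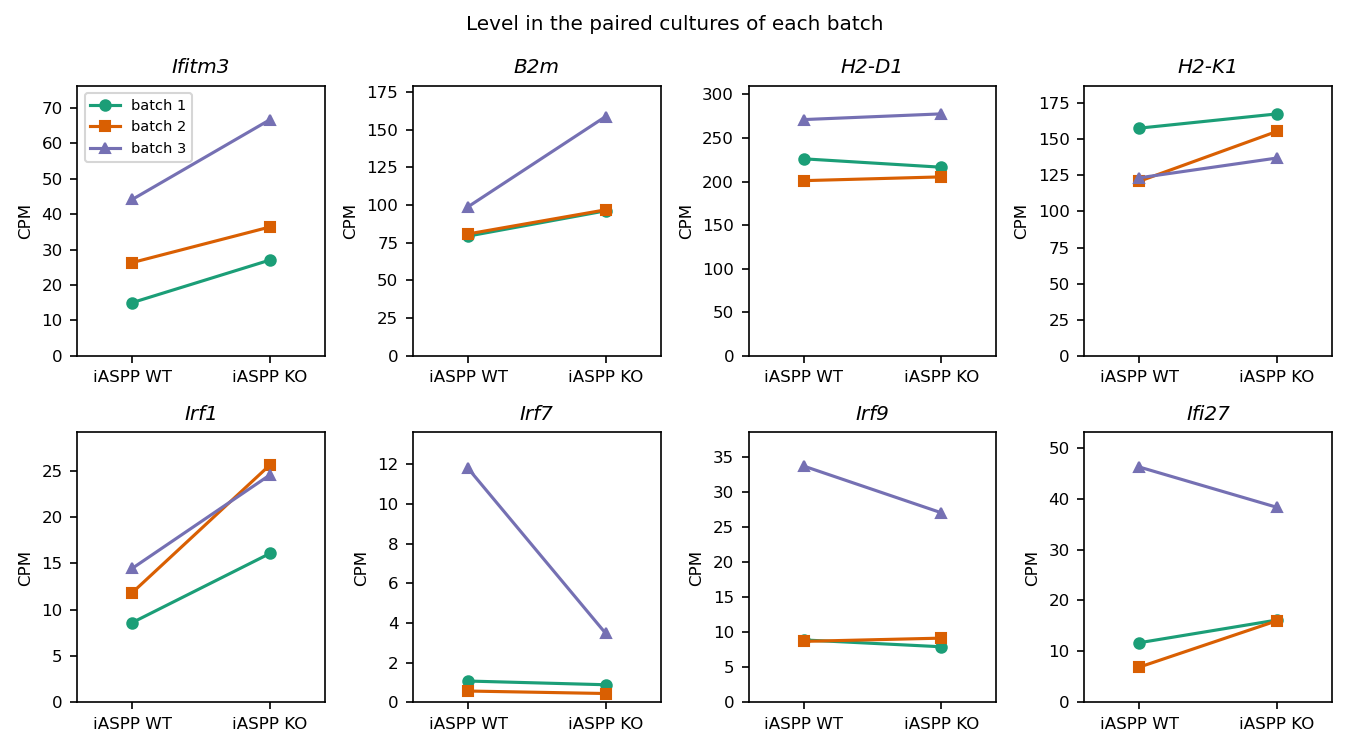
Each panel shows 1 gene's level in CPM (vertical axis, from 0) in the iASPP WT and iASPP KO cultures, with a line joining the 2 cultures of a batch. *Ifitm3*, *B2m*, *H2-K1* and *Irf1* have upward lines in all 3 batches, *H2-D1* is nearly flat, and the batch 3 lines of *Irf7*, *Irf9* and *Ifi27* run downward from the highest iASPP WT level.

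The transcription factors that carry the interferon signal were present but not called. *Stat2* and *Irf9*, whose products are parts of the ISRE-binding complex, had intervals on both sides of 0. *Stat2* was at 12.2, 11.6 and 22.1 CPM in iASPP KO and 12.2, 10.5 and 20.1 CPM in iASPP WT (log2 fold change 0.09, 95% interval −0.32 to 0.51). *Irf9* was at 7.93, 9.16 and 27.0 CPM in iASPP KO and 8.90, 8.70 and 33.7 CPM in iASPP WT (log2 fold change −0.14, 95% interval −0.57 to 0.28). Both genes were higher in the cultures of batch 3 than in any other. *Irf7*, the factor that amplifies interferon production, was at 0.89, 0.45 and 3.48 CPM in iASPP KO and 1.08, 0.57 and 11.8 CPM in iASPP WT. Its log2 fold change of −0.89 (SE 0.51; adjusted p = 0.445, edgeR) had unequal parts: the difference was −1.74 in batch 3, against −0.25 and −0.30 in batches 1 and 2.

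In the ISG15 system, a ubiquitin-like modifier and its enzymes, *Isg15* and *Usp18* had few reads in most cultures, whereas *Trim25* did not. *Isg15* had 2, 2 and 33 counts in iASPP KO and 6, 2 and 22 in iASPP WT, too few for a test. *Usp18*, which removes ISG15 and dampens receptor signalling, was at 0.31, 0 and 1.19 CPM in iASPP KO and 0, 0.53 and 9.75 CPM in iASPP WT. Its batches gave opposite signs, 2.18, −2.82 and −2.95, and its adjusted p was 0.549 (edgeR). Without batch 1 its log2 fold change was −3.44 and it passed the threshold (adjusted p = 0.0476), and over all alternatives its adjusted p ran from 0.0476 to 0.973. *Trim25*, a ubiquitin ligase of RNA sensing that can also attach ISG15, was at 9.80 to 14.1 CPM in all cultures (log2 fold change −0.14, 95% interval −0.63 to 0.34).

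The viral RNA sensors of the RIG-I family all had negative fitted values, as did 7368 of all 14916 genes tested, and none of the 3 passed the test. *Ifih1*, which encodes the sensor MDA5, was at 4.81, 4.89 and 5.18 CPM in iASPP KO and 5.01, 7.63 and 12.3 CPM in iASPP WT (log2 fold change −0.66, SE 0.31; adjusted p = 0.326, edgeR). The iASPP KO cultures were nearly level, while the iASPP WT cultures differed between batches. *Ddx58*, which encodes RIG-I, was at 22.8, 16.3 and 20.7 CPM in iASPP KO and 13.0, 18.8 and 41.2 CPM in iASPP WT. Its batches disagreed, with log2 differences of 0.81, −0.21 and −0.99 around a fitted value of −0.14. *Dhx58*, the related protein LGP2, was below its iASPP WT partner in each batch at 0.135 to 3.21 CPM (log2 fold change −1.33, SE 0.81).

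OAS enzymes make the oligoadenylate signal that activates RNase L, and most were barely detected. *Oas1a* was the only tested member of the family, at 0.13, 0.49 and 1.83 CPM in iASPP KO and 0.52, 0.74 and 7.22 CPM in iASPP WT. Each iASPP KO value was below that of its batch partner (log2 fold change −1.49, SE 0.67; adjusted p = 0.298, edgeR), but 62.1% of its windows also occurred in *Oas1b* or *Oas1g*. *Oas2* was listed at 0 counts in 5 cultures and at 5 counts in iASPP WT of batch 3. *Oas3* had 0, 2 and 8 counts in iASPP KO and 0, 1 and 27 in iASPP WT. *Oasl1* had 0 to 10 counts per culture, and *Oasl2* had 37 and 8 counts in the iASPP KO and iASPP WT cultures of batch 3 and at most 1 elsewhere.

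The IFIT proteins bind foreign RNA, and 2 of their 3 genes were nearly absent outside batch 3. *Ifit1* was at 0, 0.63 and 5.48 CPM in iASPP KO and 0.09, 0.12 and 4.36 CPM in iASPP WT, and *Ifit3* had 0, 3 and 81 counts in iASPP KO and 4, 0 and 57 in iASPP WT. In both genes nearly all reads came from batch 3, and from both conditions. *Ifit2* was less uneven, at 2.05 to 6.28 CPM (log2 fold change −0.43, 95% interval −1.45 to 0.58). *Ifit3* shared 55.0% of its windows with *Ifit3b*, so the reads of these copies cannot be separated with certainty.

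The remaining interferon-stimulated genes were mostly low. *Rsad2*, which encodes the antiviral enzyme viperin, was at 1.56, 1.39 and 1.61 CPM in iASPP KO and 0.66, 0.41 and 1.78 CPM in iASPP WT (log2 fold change 0.93, SE 0.79; adjusted p = 0.64, edgeR). *Gbp2*, a guanylate-binding protein that attacks membranes around pathogens, was at 0.27, 1.12 and 3.14 CPM in iASPP KO and 0.28, 0.33 and 0.94 CPM in iASPP WT (log2 fold change 1.24, SE 0.88). *Mx1*, of the Mx GTPase family, was the only tested gene of the 42 with both batch 3 cultures below the rest. It was at 0.98 CPM in iASPP KO (23 counts) and 0.22 CPM in iASPP WT (5 counts) of batch 3, against 1.12 to 2.11 CPM. *Ifi27*, which encodes a small protein strongly induced by interferon, was at 16.2, 16.0 and 38.3 CPM in iASPP KO and 11.7, 6.93 and 46.2 CPM in iASPP WT. In batches 1 and 2 it was higher in iASPP KO (log2 differences 0.46 and 1.20), in batch 3 lower (−0.27), and the fit gave 0.44 (adjusted p = 0.436, edgeR). Without batch 3 *Ifi27* passed the threshold, with a log2 fold change of 0.83 (adjusted p = 0.018), and over all alternatives its adjusted p ran from 0.018 to 0.996.

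Other members are given by their range. *Parp9* and *Dtx3l*, which act together as a mono-ADP-ribosyltransferase and ubiquitin ligase pair, had log2 fold changes of −0.24 and −0.14, and *Parp14* had 0.47. *Ifi35* was at 13.1 to 29.0 CPM with a log2 fold change of −0.18. *Mx2*, *Gbp3*, *Cmpk2* and *Ifi44* never exceeded 2.85 CPM and had standard errors from 0.98 to 2.22. *Gbp7* and *Rtp4* were not tested, and most of their reads came from batch 3.

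**Figure D3:**
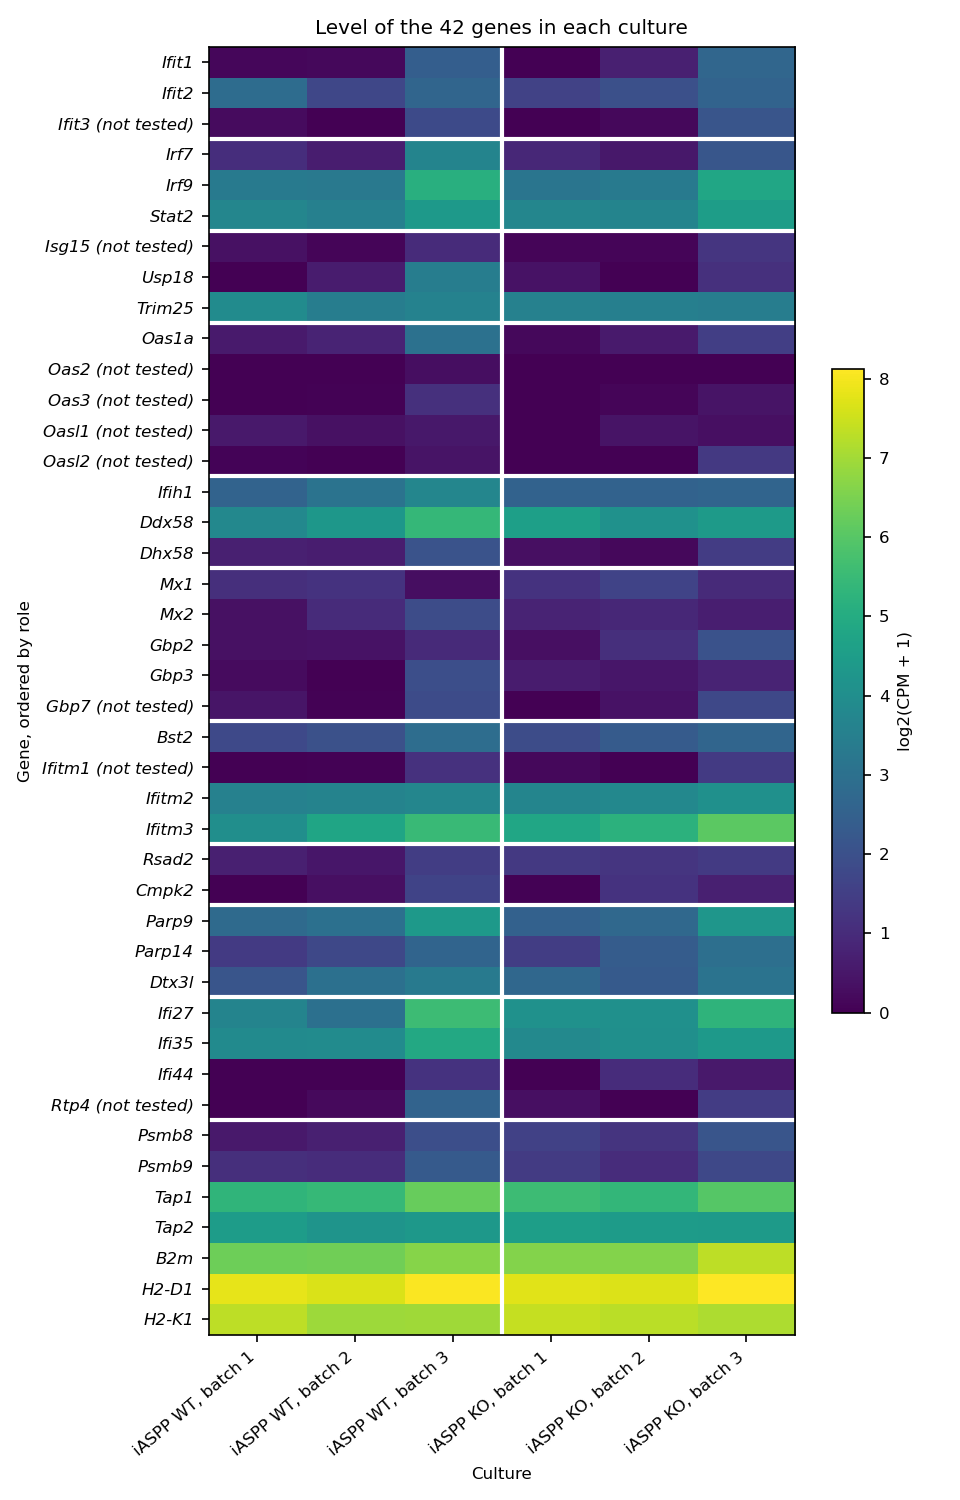
The heatmap shows log2(CPM + 1) of the 42 genes (vertical axis, by role) in the 6 cultures (horizontal axis, iASPP WT left and iASPP KO right). *Tap1*, *Tap2*, *B2m*, *H2-D1* and *H2-K1* at the bottom are among the brighter rows in all cultures, and *Psmb8* and *Psmb9* are dim. For 23 of the 35 interferon-stimulated genes both batch 3 columns are brighter than all columns of batches 1 and 2, and for *Mx1* both are dimmer.

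Most of these genes were highest in the cultures of batch 3, in both conditions. Among the 33 tested genes, both cultures of batch 3 were above the other 4 cultures for 21 (63.6%), against 19.1% of all tested genes. Because a gene needed reads in 3 libraries to be tested, and batch 3 had 2, genes seen only there were left out. Counted over gene names with at least 10 reads in total, the share was 28 of 41 (68.3%), against 15.4% of 22134 names. Of the 9 untested genes 7 had this pattern. It held for 23 of the 35 interferon-stimulated genes and for 5 of the 7 class I genes. The ratio of the mean level in batch 3 to that in batches 1 and 2 had a median of 2.36 over the 26 tested interferon-stimulated genes, 1.46 over the 7 class I genes and 1.01 over all genes. It was 10.2 for *Irf7*, 23.3 for *Ifit1* and 25.9 for *Usp18*. With only 2 cultures in the batch, which are not replicates of a condition, these are descriptions and no test was made.

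The summed level of the 35 interferon-stimulated genes was 131 and 143 CPM in iASPP WT of batches 1 and 2 and 150 and 165 CPM in iASPP KO, and it reached 358 CPM in iASPP WT and 303 CPM in iASPP KO of batch 3. The summed level of the 7 class I genes was less uneven, 465 to 552 CPM in batches 1 and 2 and 593 and 661 CPM in batch 3. In batches 1 and 2, 19 members averaged under 1 CPM, all of them interferon-stimulated genes, and 14 of these averaged 1 CPM or more in batch 3. In *Irf7*, *Usp18*, *Oas1a* and *Rtp4* the iASPP WT culture of batch 3 was the highest by far, at 11.8, 9.75, 7.22 and 4.99 CPM.

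**Figure D4:**
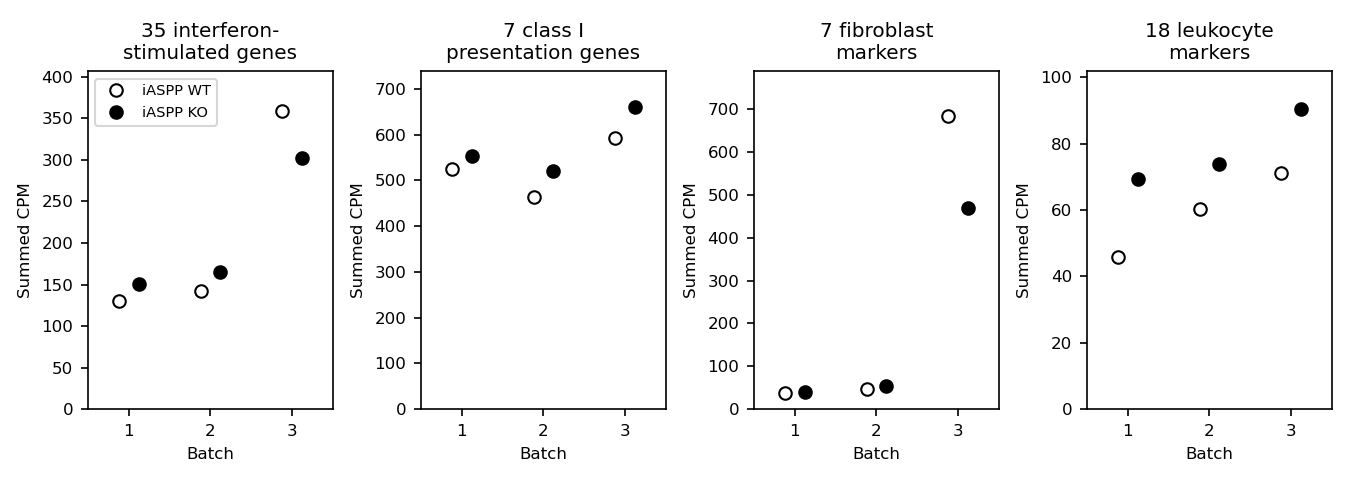
Each panel shows the summed CPM (vertical axis, from 0) of a gene list in the 3 batches (horizontal axis), with open circles for iASPP WT and filled circles for iASPP KO. The interferon-stimulated genes reach 303 and 358 CPM in batch 3 against at most 165 CPM elsewhere, and the fibroblast markers are highest in the same batch, with iASPP WT above iASPP KO for both lists.

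Markers of other cells moved with the batch. All 7 fibroblast markers were above their levels of batches 1 and 2 in both batch 3 cultures: *Col1a2*, a chain of type I collagen, was at 178 CPM in iASPP KO and 247 CPM in iASPP WT, against 7.30 to 12.3 CPM elsewhere. The 18 leukocyte markers summed to 90.3 CPM in iASPP KO and 71.0 CPM in iASPP WT of batch 3 and 45.7 to 73.9 CPM elsewhere. Among them, *Lyz2*, the lysozyme of macrophages, was at 59.1 and 49.6 CPM in batch 3 against 1.11 to 4.81 CPM, whereas *Csf1r* and *Cd68*, also of macrophages, were lower in batch 3. The pan-leukocyte gene *Ptprc* was at 2.12 and 2.14 CPM in batch 3 and at most 1.17 CPM elsewhere, and *Itgax* and *Tyrobp*, of myeloid cells, were also highest in batch 3, at 1.16 to 2.89 CPM against at most 0.27 CPM. The T cell gene *Cd3e* was at 0 in every culture, while *Trdc*, of gamma-delta T cells, was at 1.87 and 2.15 CPM in iASPP KO of batches 1 and 2 and at most 0.041 CPM elsewhere. Epithelial markers summed to 3324 and 3675 CPM in batch 3 against 5804 to 7173 CPM, most of it *Dsp*, while *Epcam* averaged 165 CPM in batch 3 and 96.1 CPM in batches 1 and 2. Across all cultures melanocyte markers summed to 367 to 1120 CPM, endothelial markers to 3.87 to 21.5 CPM and Schwann cell markers to 1.72 to 9.98 CPM. The part of these cells, or of anything else that set batch 3 apart, in the levels of the 42 genes was not tested.

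Some of these markers also moved with the condition. Of 54 markers 40 were tested, 1 was higher and 3 were lower in iASPP KO, where 2.17% of all genes tested were higher and 1.95% lower. *Csf1r*, the macrophage growth factor receptor, was at 18.5, 28.8 and 5.23 CPM in iASPP KO and 9.09, 15.1 and 1.92 CPM in iASPP WT, 2.16-fold higher (adjusted p = 0.0206, edgeR). The collagen genes *Col1a2* (0.69-fold, adjusted p = 0.0428) and *Col3a1* (0.55-fold, adjusted p = 0.0269) and the suprabasal keratin gene *Krt10* (0.40-fold, adjusted p = 0.033) were lower. Their lists were not uniform. Of the 4 suprabasal markers 2 had positive fitted values, among them *Ivl* (1.53-fold, adjusted p = 0.1, edgeR). Of the 7 fibroblast markers 6 had negative values and *Pdgfra* a positive one (1.75-fold, adjusted p = 0.258, edgeR). The summed leukocyte markers were above their partner in iASPP KO of each batch, at 69.2 against 45.7, 73.9 against 60.4 and 90.3 against 71.0 CPM. Most of this sum came from *Csf1r*, *Cd68* and *Lyz2*, and *Cd68* was lower in iASPP KO of batch 2 (38.3 against 42.5 CPM). Of the 7 tested leukocyte markers 6 had positive fitted values, *Fcer1g* had a negative one (−1.26), and only *Csf1r* was called. The part of these markers in the call of *Ifitm3*, or in those of other pathway genes, was not tested.

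Within batch 3, iASPP KO was the lower culture for most of these genes. It was lower for 21 of the 33 tested genes (63.6%), against 49.3% of all genes, and for 19 of the 26 interferon-stimulated genes (73.1%), whose median log2 difference was −0.28. Fibroblast markers were also lower in this iASPP KO culture, at 469 against 685 CPM. In batch 1, 13 of 33 genes were lower in iASPP KO, against 50.4% of all genes (ties, with 0 counts in both cultures, not counted), with a median of 0.10, and in batch 2, 10 of 33, against 50.1%, with a median of 0.17. Each of these is the difference of 1 pair of cultures, and with 1 pair per batch no difference between batches was tested.

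Genes with and without an ISRE core were both among those highest in batch 3. Of 14 interferon-stimulated genes with a core, 10 had both batch 3 cultures above the other 4, and of 12 without one, 7 did. *Isg15*, *Ifit1*, *Ifit3* and *Bst2*, printed above with their repeated cores, all did, and so did *Ifitm3*, whose window had none. For 9 genes without a window, 6 did. No match says only that these letters are missing from the 250 bases upstream.

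The rest of the pathway was read from lists arranged by role. None of the 21 genes for type I, II and III interferons on the list was tested. Reads were seen for 5 of them, each in 1 culture only. *Ifnk*, the interferon that keratinocytes make constitutively, was seen in iASPP KO of batch 3, at 0.17 CPM, and the highest value was 19 counts (0.85 CPM) of *Ifnab* in iASPP WT of batch 3, a gene named after its value was seen. All 6 receptor genes were tested and none was called or had an unadjusted p under 0.05, with a median log2 fold change of −0.07. *Ifnar1*, a chain of the type I receptor, was at 49.0, 56.1 and 68.4 CPM in iASPP KO and 59.6, 64.8 and 77.0 CPM in iASPP WT (log2 fold change −0.22, 95% interval −0.49 to 0.04). Its partner *Ifnar2* had a log2 fold change of −0.08 (95% interval −0.58 to 0.41). Both receptor chains were thus transcribed in all cultures.

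Among 9 JAK, STAT and IRF genes outside the 42 that are reported here, 8 were tested, 1 was higher and 0 were lower. Of all genes tested, 2.17% were higher and 1.95% lower. *Irf1*, a factor induced by interferon gamma and by inflammatory signals that drives class I genes, rose in iASPP KO: it was at 16.1, 25.6 and 24.6 CPM, against 8.62, 11.9 and 14.5 CPM in iASPP WT. The groups did not overlap, and the level was 1.90-fold higher (log2 fold change 0.92, SE 0.18; adjusted p = 0.0229, edgeR). Its adjusted p was 0.0668 without batch 1 and 0.163 without batch 2. *Irf3*, which is activated by the sensors, had a log2 fold change of −0.26 (95% interval −0.54 to 0.02; adjusted p = 0.345, edgeR).

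Of 9 tested genes for sensors and adaptors 1 was called, where 4.12% of all genes tested were. *Ikbke*, a kinase that activates IRF3 and also feeds NF-kappa-B signalling, rose 1.60-fold, from 42.1, 49.5 and 22 CPM in iASPP WT to 64.1, 71.4 and 41.2 CPM in iASPP KO (log2 fold change 0.68, SE 0.14; adjusted p = 0.0237, edgeR). Its adjusted p was 0.0748 without batch 1 and 0.0893 without batch 2. None of 9 tested feedback regulators was called, with log2 fold changes from −0.43 (*Ptpn2*) to 0.40 (*Tnfaip3*), and these ends alone had an unadjusted p under 0.05. Of 51 tested genes from a list of 94 further interferon-stimulated genes, 93 of them in the table, 2 were higher and 0 lower, with a median log2 fold change of 0.07. The shares over all genes tested were 2.17% higher and 1.95% lower. *Ccl2*, the chemokine that attracts monocytes, was at 15.9, 25.3 and 53.0 CPM in iASPP KO and 5.25, 11.9 and 29.3 CPM in iASPP WT, and was 2.23-fold higher (log2 fold change 1.16, SE 0.19; adjusted p = 0.0095). *Gch1*, the first enzyme of tetrahydrobiopterin synthesis, was at 13.0, 15.6 and 11.1 CPM in iASPP KO and 5.15, 9.68 and 3.83 CPM in iASPP WT (log2 fold change 1.17, SE 0.26; adjusted p = 0.0322, or 0.121 without batch 1 and 0.0584 without batch 2). *Irf1*, *Ikbke* and *Ccl2* are also known to respond to NF-kappa-B. The macrophage gene *Csf1r* was higher in iASPP KO as well (2.16-fold), and its part in these calls was not tested. In the fit without the batch block the adjusted p of *Irf1*, *Ikbke*, *Ccl2* and *Gch1* was 0.973.

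Antigen presentation beyond the members showed no call. Of 28 tested class I genes, none passed, with a median log2 fold change of 0.04. At an unadjusted p under 0.05, 3 were lower (*Erap1*, *Psmb10* and *Rfxap*), where 8.09% of all genes were. *Tapbp*, which encodes the loading factor tapasin, had a log2 fold change of 0.27 (95% interval −0.14 to 0.68), and *Nlrc5*, the transactivator of class I genes, had 0.10 (95% interval −0.82 to 1.02). Among 12 MHC class II genes 4 were tested, with 0 called and 0 at an unadjusted p under 0.05 (edgeR). All 14 standard proteasome subunits were tested, again with 0 by either count, with log2 fold changes from −0.04 to 0.25.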

How the data were processed

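Counts were deposited by the authors per gene name for 6 libraries. Per the file headers and the methods, adapters of the 42-base single reads were removed with Cutadapt, reads were aligned to GRCm38 (mm10) with STAR and counted by strand on the exons of GENCODE vM25 with featureCounts 2.0.0, without normalization. Ribosomal RNA had been depleted. The tamoxifen concentration is 1 mM in the labels and 1 μM in the methods. A second deposited table, with the authors' DESeq2 fold changes and p-values, was not used.

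The 42 genes, the pathway lists and the cell type markers were chosen with earlier results of these data known, and some genes of the pathway are not reported here. All genes were fitted together (edgeR 4.0.16, R 4.3.3) after filterByExpr within conditions and TMM scaling, with batch as a block (labels and design text pair the cultures), glmQLFTest, and Benjamini-Hochberg adjustment over 14916 genes with a threshold of 0.05. The correlation of deviations from the group means was 0.302, 0.368 and 0.568 for cultures of the same batch and −0.427 to 0.179 for others. CPM used TMM-scaled library sizes, and within-batch differences a prior count of 2. The SE is the absolute log2 fold change divided by the square root of F. Libraries of a group differed far beyond sampling noise (chi-square per gene 39.7 to 173). Depth precision covers counting error only. Steps were tested on simulated data. Values in every culture are given for called genes and for a list written down with the design; the remainder are given by range.

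Read-length windows come from GENCODE vM21 transcripts, exon overlaps from the exon positions deposited with the counts, and promoters from RefSeq (GRCm38.p6). Alternatives were no batch block, DESeq2 1.42.0, DESeq2 size factors, upper-quartile scaling, other count filters, robust dispersion and each batch left out. Figures were drawn with matplotlib 3.10.9 in Python 3.11.15.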

Additional observations from a re-analysis of the deposited data

How the results depend on the processing

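The count of members called higher in iASPP KO stayed at 1, always *Ifitm3*, with DESeq2, DESeq2 size factors, upper-quartile scaling, no filter beyond 1 count, at least 10 counts in every library and robust dispersion, and the count called lower stayed at 0. Without the replicate block 0 members were called, and 0 of all genes were called in either direction, against 323 higher and 291 lower with it. In that fit *Gbp3* turned to −0.83, *Bst2* to −0.010 and *Cmpk2* to −0.24, none of them called in any fit. With one batch left out, 0 to 2 members were called higher and 0 to 1 lower, and all genes called ranged from 169 to 793 higher and 117 to 662 lower; with no filter they were 624 and 491. The ranges of log2 fold changes with one batch left out crossed 0 for *Ifit1* (−0.12 to 1.04), *Ifit2* (−0.82 to 0.13), *Ddx58* (−0.60 to 0.30), *Mx2* (−1.19 to 0.56), *Gbp3* (−0.40 to 0.38), *Bst2* (−0.10 to 0.25), *Cmpk2* (−0.90 to 0.25), *Dtx3l* (−0.54 to 0.22), *Ifi35* (−0.33 to 0.022), *Ifi44* (−1.37 to 1.44), *Psmb9* (−0.36 to 0.28), *Tap1* (−0.17 to 0.077) and *H2-D1* (−0.016 to 0.036). The cause was not tested, apart from the smaller number of samples. The median log2 fold change of the members ran from −0.12 to 0.16 with one batch left out. Depth limited the members with few reads: 9 could not be tested, and the 95% intervals of *Mx2*, *Gbp3*, *Cmpk2* and *Ifi44* reached several fold in both directions.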
